A study of Mus musculus with 30 samples.

Results

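Tumours given the R108G form of the epidermal growth factor receptor EGFR were compared with tumours given mCherry, over all genes measured. The comparison rests on 6 of the 30 samples of the series, 3 R108G tumours and 3 mCherry tumours, and was set by the receptor form in the labels and not by any measured value. In R108G the arginine of the receptor's extracellular part is replaced by glycine, and mCherry is a fluorescent protein that stands in for the receptor in the control tumours. All 6 were bulk pieces of a cortical brain tumour, labelled glioblastoma, taken from mice at postnatal day 70, with 1 stranded polyadenylated RNA library per tumour. EGFR wild-type tumours (n = 3) and normal cortex (n = 2) of the same age served as further references. The promoter that drives the constructs, their species, the alterations that start the tumours in both groups, the strain and the sex of the mice are not given in the sources used here.

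EGFR is a receptor tyrosine kinase that binds ligands such as EGF and TGF-alpha, pairs with itself or with its relatives ErbB2 to ErbB4, and signals through the MAP kinase ERK, which in turn induces its own feedback inhibitors. In the brain the receptor is active in neural progenitors and in oligodendrocyte precursor cells. These precursors mature through newly formed oligodendrocytes into cells that wrap axons in myelin, and gliomas often carry the genes of this lineage.

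The unit RPM stands here for a deposited count, already scaled for depth, over 1 constant shared by every library. The R108G libraries held 19094450, 18933839 and 14280294 reads and the mCherry libraries 7466221, 18178209 and 13978968 reads. Of 24421 genes listed, 15824 had at least 1 RPM in at least 3 of the 30 libraries and were tested with limma. A gene passed at an adjusted p (Benjamini-Hochberg over these genes) below 0.05, and log2 differences are R108G minus mCherry on log2(RPM + 1). Nothing in the labels says whether the 3 tumours of a group came from separate litters, so a p-value measures only the spread between samples of this series. For each gene that spread was estimated within the 9 groups of all 30 libraries, and not from the 6 compared tumours alone.

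The label was checked first at the receptor gene itself. Egfr (mm10 chromosome 11, 16752203 to 16918158) was at 17.5, 732 and 52.3 RPM in R108G libraries 1, 2 and 3, against 30.9, 22.1 and 35.4 RPM in mCherry libraries 1, 2 and 3. R108G library 2 was far above the rest. R108G library 1, with an exact Poisson 95% interval of 15.7 to 19.4 RPM for counting error, lay below every mCherry library, and R108G library 3, with an interval of 48.7 to 56.1 RPM, lay above them. The groups overlapped, the log2 difference was 1.58 ± 1.09 (SE), and limma gave an adjusted p of 0.739. Whether a human receptor sequence would have been counted under the mouse gene cannot be told from the sources used here.

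Cell type markers were set against those of cortex. The summed level of 17 oligodendrocyte precursor genes was 9858, 7333 and 6354 RPM in the R108G tumours, against 5373, 7068 and 6126 RPM in the mCherry tumours and 1853 and 1892 RPM in cortex. In mCherry library 2 a single gene, Ptprz1, made up 3996 RPM of this sum. The mean of log2(RPM + 1) over the 17 genes was 8.59, 8.37 and 8.20 in the R108G tumours. It was 7.67, 6.81 and 7.52 in the mCherry tumours, so by this measure mCherry library 2 was the lowest of the 6. The summed level of 25 neuron genes was 1317, 3975 and 3517 RPM in the R108G tumours, against 4732, 1479 and 1638 RPM in the mCherry tumours and 19350 and 19320 RPM in cortex. Neuron RNA was thus highest in mCherry library 1, R108G library 2 and R108G library 3. Its part in the differences below was not tested.

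Libraries of the same group also stood apart in ways the receptor label does not describe. Met, a receptor tyrosine kinase, was at 411, 25.2 and 186 RPM in the R108G tumours, against 4.98, 6283 and 14.6 RPM in the mCherry tumours. Of these 6 libraries mCherry library 2 was the highest. High Met was not confined to it, since Met was at 4610, 3853 and 3.51 RPM in the EGFR wild-type tumours. Xist, the RNA of the inactive X chromosome, was at 0.450, 202 and 0.401 RPM in the R108G tumours, against 809, 317 and 409 RPM in the mCherry tumours. The Y-linked gene Ddx3y was at 7.69, 0 and 16.4 RPM in the R108G tumours, against 0, 0 and 0.0687 RPM in the mCherry tumours. R108G libraries 1 and 3 therefore had Y-linked and almost no Xist RNA, and R108G library 2 and all mCherry libraries had the reverse. These sex-linked genes were chosen after their values were seen. The library numbers in the titles also differ, since all R108G libraries and mCherry library 3 are in a high range of these numbers and mCherry libraries 1 and 2 in a low one, and what the numbers stand for is not given.

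Against this background 6 genes rose in R108G tumours and 0 fell, 0.0379% of the genes tested. At an unadjusted p under 0.05, 762 genes (4.82%) were higher and 568 (3.59%) were lower, together 8.4%. On the recovered reads edgeR called 6 genes, 5 of them among these 6, and DESeq2 called 98. A limma fit of only the R108G and mCherry libraries called 0. The 6 were the sialidase gene Neu4, the collagen gene Col9a3, the calcium-binding protein gene S100a1, the neighbours Oraov1 and Ppfia1 of the cyclin gene Ccnd1, and the predicted locus D630003M21Rik. The 3 R108G libraries lay above the 3 mCherry libraries in each of these 6 genes, which was so for 1084 genes in all (6.85%). The call rested on single libraries, since 1 of the 6 remained without R108G library 3 and 1 of the 6 without mCherry library 3. Without R108G library 1 there were 10 calls, of which 4 were among the 6. Without both R108G libraries 1 and 3, the libraries low in Egfr and Xist, 1 R108G tumour is left. The log2 differences of the 6 genes then ran from 1.14 (Ppfia1) to 4.02 (Neu4).

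**Figure D1:**
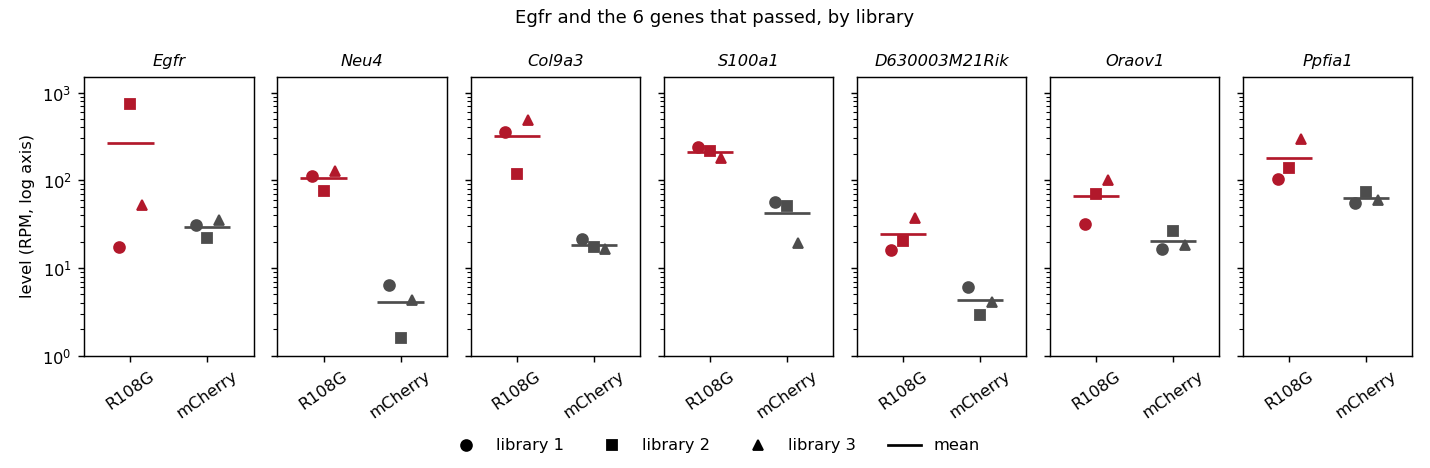
Level of Egfr and of the 6 genes that passed in each library (RPM, log axis), with R108G in red on the left and mCherry in grey on the right of each panel. Points are libraries and lines are group means. Egfr overlaps between the groups, with R108G library 2 at 732 RPM, while Neu4 spans 74.9 to 129 RPM in R108G and 1.59 to 6.44 RPM in mCherry.

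Neu4 (mm10 chromosome 1, 94020451 to 94028334, plus strand) encodes a neuraminidase that removes sialic acid from glycans, and is a marker of the oligodendrocyte lineage. Its level was 112, 74.9 and 129 RPM in the R108G tumours, against 6.44, 1.59 and 4.26 RPM in the mCherry tumours. Every R108G library was more than 10 times as high as every mCherry library, and the log2 difference was 4.48 ± 0.49 (SE, limma adjusted p = 2.72e-05). Neu4 also exceeded its level in EGFR wild-type tumours (8.42, 19.4 and 37.3 RPM) and in cortex (15.3 and 15.4 RPM). It overlapped with that in tumours with the other change at the same arginine, R108K (31.05 to 111 RPM). The overlap was not particular to this residue, since A289I (47.3 to 151 RPM), A289V (51.5 to 90.8 RPM) and T263P (41.7 to 92.2 RPM) overlapped too. R222C lay lower (21.5 to 41.5 RPM). In all of these groups and in cortex Neu4 was above every mCherry library. It passed in 17 of 18 alternatives to the analysis, the exception being a fit of only the R108G and mCherry libraries (limma adjusted p = 0.0782). In R108G library 2 alone, the R108G tumour with the most Egfr and with Xist, the log2 difference from the mCherry libraries was 4.02.

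Neu4 was the 1 member of its enzyme family to pass. Neu1, Neu2 and Neu3, the other sialidases, overlapped between the groups, and of 21 tested genes for sialidases and sialyltransferases, which add sialic acid, 13 had higher means in R108G tumours, with a median log2 difference of 0.10 against 0.01 over all genes. St6gal2, a sialyltransferase, was at 3.15, 5.58 and 2.21 RPM in the R108G tumours, against 11.4, 4.94 and 15.1 RPM in the mCherry tumours. With a log2 difference of -1.25 ± 0.60 it did not pass (limma adjusted p = 0.590).

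The start of Neu4 is shown because this gene carries the one call that held in nearly all alternatives. The window, from 250 bases before to 50 after the RefSeq start of the gene, comes from RefSeq (build GRCm38.p6, chr1:94020243-94020542, plus strand). The window of S100a1 (chr3:90514281-90514580, minus strand) is given beside it. Capitals mark matches to CANNTG, the E-box bound by basic helix-loop-helix factors such as Olig2, searched on both strands.
Neu4: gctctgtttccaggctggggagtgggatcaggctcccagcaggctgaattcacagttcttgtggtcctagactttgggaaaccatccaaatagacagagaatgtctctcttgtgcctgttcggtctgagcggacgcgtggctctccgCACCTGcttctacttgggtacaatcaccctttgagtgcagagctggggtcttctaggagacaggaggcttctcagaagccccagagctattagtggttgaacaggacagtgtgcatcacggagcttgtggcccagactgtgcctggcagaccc
S100a1: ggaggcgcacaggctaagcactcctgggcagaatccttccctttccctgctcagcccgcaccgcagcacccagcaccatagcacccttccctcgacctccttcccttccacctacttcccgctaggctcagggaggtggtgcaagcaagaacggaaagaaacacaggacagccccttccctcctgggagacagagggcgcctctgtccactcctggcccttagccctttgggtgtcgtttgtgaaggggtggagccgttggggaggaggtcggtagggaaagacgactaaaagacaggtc
The Neu4 window held 1 such match, at position -103 from the RefSeq start, and the S100a1 window held 0. For both genes the RefSeq start differs from that of the gene positions printed in the text, which are from GENCODE. Among 32851 promoter windows of the same length 72.3% held at least 1 match. Windows were found for 4 of the 6 genes that rose, and the Ppfia1 window held 2 such matches and that of D630003M21Rik 0. The SOX motif letters ACAAAG or ACAATG, on either strand, were in the window of D630003M21Rik, in none of the other 3, and in 28.6% of all windows.

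Col9a3 (chromosome 2, 180597790 to 180622189), which encodes a chain of the cartilage collagen type IX, was at 356, 119 and 487 RPM in the R108G tumours, against 21.3, 17.4 and 16.6 RPM in the mCherry tumours. R108G library 2 was the lowest of its group and still above all mCherry libraries, which lay close together. The log2 difference was 3.83 ± 0.64 (SE, limma adjusted p = 0.0169). The call was lost without R108G library 1 (limma adjusted p = 0.0548) or 3 (0.288) and without mCherry library 2 (0.0508) or 3 (0.0908), and when library numbers were split into a low and a high range (0.206).

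Other collagens of cartilage varied between the tumours and none of them passed. Col11a2, a chain of type XI collagen, was at 258, 223 and 890.5 RPM in the R108G tumours, against 18.0, 5.32 and 26.8 RPM in the mCherry tumours. Col9a1, the partner of Col9a3 in type IX collagen, was at 34.03, 211.5 and 508 RPM in the R108G tumours, against 32.7, 3.90 and 29.8 RPM in the mCherry tumours. In both genes all R108G libraries were higher and R108G library 3 was the highest, though Col9a1 in R108G library 1 was level with mCherry library 1. Col9a2, at 112, 38.4 and 59.2 RPM in the R108G tumours against 26.1, 4.61 and 69.6 RPM in the mCherry tumours, and Col2a1, at 51.7, 80.0 and 759 RPM in the R108G tumours against 182, 1.92 and 269 RPM in the mCherry tumours, overlapped. The log2 differences were 4.64 ± 1.09 (limma adjusted p = 0.165) for Col11a2 and 3.18 ± 1.34 (0.532) for Col9a1. Of 31 tested collagen genes 1 passed, 26 had higher means (51.2% of all genes did), 7 had all R108G libraries higher (6.85% did), and the median log2 difference was 0.43. That median was 0.69 without R108G library 1 and 0.89 without R108G library 2. Among them were Col4a1 (1.75) and Col4a2 (1.88), the collagens of vascular basement membranes, and of 15 basement membrane genes 14 had higher means and 5 had all R108G libraries higher.

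S100a1 (chromosome 3, 90511034 to 90514392, minus strand), an EF-hand protein that binds calcium, was at 242 RPM in R108G library 1, 219 RPM in library 2 and 177 RPM in library 3, against 56.9, 51.3 and 19.5 RPM in the mCherry tumours. The R108G libraries were close together and the mCherry libraries lay below them, with mCherry library 3 the lowest. The log2 difference was 2.42 ± 0.45 (SE, limma adjusted p = 0.0387). The mCherry tumours were the low group, since S100a1 was at 99.6, 155 and 192 RPM in EGFR wild-type tumours and at 135 and 140.2 RPM in cortex. The call was lost without any one of R108G library 1 (limma adjusted p = 0.106), 2 (0.135) or 3 (0.288) and without mCherry library 2 (0.0508) or 3 (0.171), and edgeR gave S100a1 an adjusted p of 0.0654. Its relative S100b, a marker of astrocytes and of maturing oligodendrocytes, was at 532, 332 and 519.9 RPM in the R108G tumours, against 219.8, 74.5 and 75.5 RPM in the mCherry tumours. All R108G libraries were higher, with a log2 difference of 2.06 ± 0.55, which missed the threshold (limma adjusted p = 0.244). Of 13 S100 genes tested 1 passed, 5 had all R108G libraries higher (6.85% of all genes did) and 2 had all R108G libraries lower (6.64% did).

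D630003M21Rik (chromosome 2, 158182533 to 158229222), a protein-coding locus with no established role, was at 15.99, 20.4 and 37.3 RPM in the R108G tumours, against 6.08, 2.91 and 4.12 RPM in the mCherry tumours. The groups did not overlap, and the log2 difference was 2.21 ± 0.37 (SE, limma adjusted p = 0.0169). Predicted loci were passed over by the naming rule, and this one is given because it is among the 6. Its call was lost without R108G library 3 (limma adjusted p = 0.288) or mCherry library 2 (0.0572) or 3 (0.0908).

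**Figure D2:**
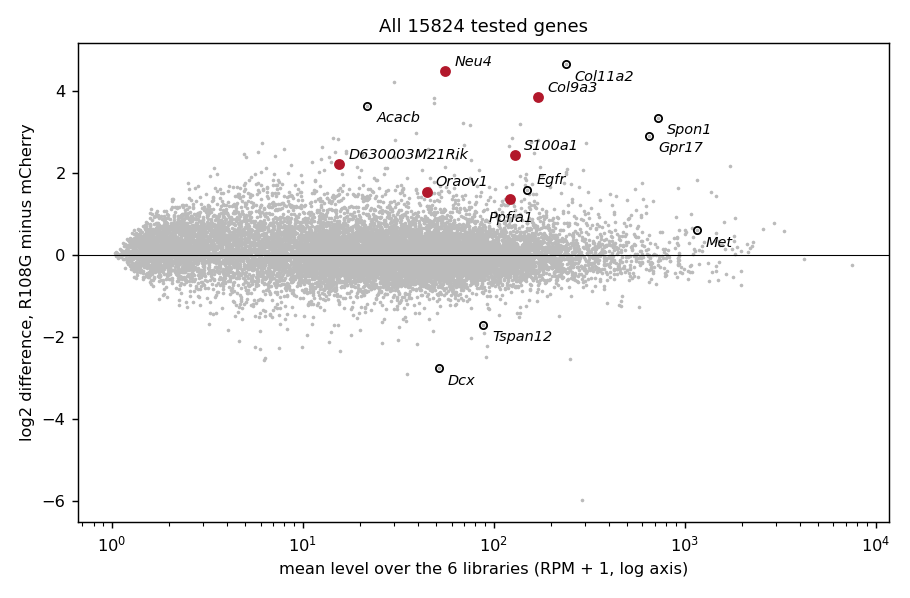
Mean level over the 6 libraries (x axis, RPM + 1, log) against the log2 difference R108G minus mCherry (y axis) for every tested gene in grey. Red points are the 6 genes that passed and open circles are genes named in the text, with Neu4 at 4.48, Col11a2 at 4.64 without a call, and Dcx at -2.77. The unlabelled point near -6 is Xist.

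The 2 remaining genes that rose lie close together on chromosome 7, to either side of other genes that were high in R108G library 3. Ppfia1 (144476758 to 144553729), which encodes the adaptor liprin-alpha-1, was at 104 RPM in R108G library 1, 139 RPM in library 2 and 295 RPM in library 3, against 55.8, 73.4 and 59.5 RPM in the mCherry tumours. Oraov1 (144915100 to 144930748 in RefSeq), named for its overexpression in human oral cancers, was at 31.7, 68.9 and 99.6 RPM in the R108G tumours, against 16.5, 26.3 and 18.4 RPM in the mCherry tumours. In both genes the groups did not overlap and R108G library 3 was the highest. The log2 differences were 1.36 ± 0.25 (SE, limma adjusted p = 0.0387) for Ppfia1 and 1.54 ± 0.27 (0.0264) for Oraov1. The Ppfia1 call was lost without R108G library 2 (limma adjusted p = 0.0741) or 3 (0.376) and without mCherry library 1 (0.146), 2 (0.0508) or 3 (0.128). The Oraov1 call was lost without R108G library 2 (limma adjusted p = 0.135) or 3 (0.343) and without mCherry library 1 (0.117) or 3 (0.119). The annotated span of Oraov1 overlaps that of Ccnd1, and the sources used here do not say that reads were counted by strand, so reads of these 2 genes may have been shared.

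The rest of the 11 tested genes around Ccnd1 were then followed by library, as the log2 level over the median of all 28 tumours. In R108G library 3 Cttn, the actin-binding protein cortactin, was at 2.04, Ppfia1 at 1.99, the death receptor adaptor gene Fadd at 2.16, the chloride channel gene Ano1 at 3.46, Oraov1 at 2.04, the lysosomal channel gene Tpcn2 at 2.58 and Mrgprf at 3.72. In R108G library 2 Fadd was at 1.58, Oraov1 at 1.52 and Tpcn2 at 1.59, with Cttn at 0.73, Ppfia1 at 0.90 and Mrgprf at 0.21. In R108G library 1 Fadd was at 0.97, Cttn at 0.79 and Mrgprf at 2.23. From Cttn to Ano1 and at Oraov1, Tpcn2 and Mrgprf the highest of the 3 was R108G library 3. In R108G library 2 all 11 genes lay above the tumour median, and Shank2 (1.11), Fgf15 (0.62) and Ccnd1 (1.44) were higher there than in R108G library 3, at 0.70, -0.03 and 0.62.

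Ccnd1 itself overlapped between the groups. This D-type cyclin, which drives entry into the cell cycle, was at 1679.6, 2161 and 1225 RPM in the R108G tumours, against 274, 2590.4 and 264 RPM in the mCherry tumours. R108G library 3 was the lowest of its group, mCherry library 2 was the highest of all 6, and the groups overlapped. The log2 difference was 1.52 ± 0.64 (SE, limma adjusted p = 0.532). Fadd, at 33.7, 52.1 and 78.2 RPM in the R108G tumours against 10.7, 14.3 and 16.02 RPM in the mCherry tumours, and Tpcn2, at 14.04, 32.1 and 64.8 against 5.71, 9.88 and 8.32 RPM, did not overlap between the groups and missed the threshold (limma adjusted p = 0.0691 and 0.110).

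**Figure D3:**
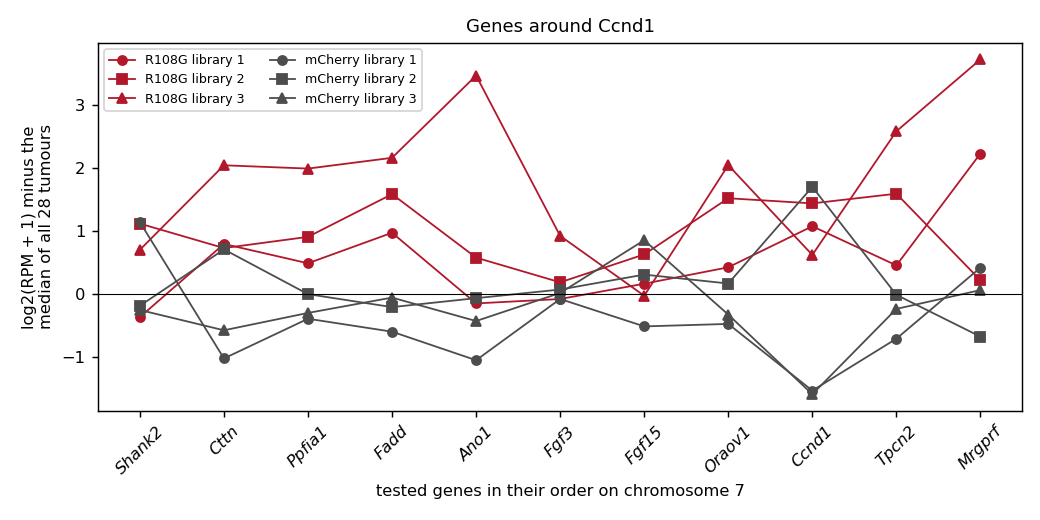
Level of the 11 tested genes around Ccnd1 in their order on chromosome 7, as log2(RPM + 1) minus the median of all 28 tumours, with 1 line per library (R108G red, mCherry grey). R108G library 3 lies near 2 from Cttn to Fadd and again at Oraov1, while Ccnd1 is at 0.62 there and at 1.70 in mCherry library 2.

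The receptor's own family and its ligands came next. No member passed in either direction. Erbb3, a receptor of this family that signals only with a partner, was at 162 RPM in R108G library 1, 115 RPM in library 2 and 53.4 RPM in library 3, against 4.13, 97.8 and 15.6 RPM in the mCherry tumours. Erbb4, another family member, was at 9.34, 7.19 and 5.08 RPM in the R108G tumours, against 15.4, 11.03 and 18.9 RPM in the mCherry tumours. Erbb3 overlapped through mCherry library 2, and all R108G libraries were lower in Erbb4. The log2 differences were 2.31 ± 0.94 (SE, limma adjusted p = 0.512) for Erbb3 and -0.98 ± 0.46 (0.574) for Erbb4.

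Of 11 listed ligands 9 were tested, 2 of which had higher means in R108G tumours. Tgfa, which encodes the ligand TGF-alpha, was at 86.3, 184 and 81.3 RPM in the R108G tumours, against 58.0, 25.8 and 42.5 RPM in the mCherry tumours. It was higher in all R108G libraries and highest in library 2, the one with the most Egfr, with a log2 difference of 1.42 ± 0.59 (SE, limma adjusted p = 0.524). Amphiregulin, Areg, and epiregulin, Ereg, were low throughout except in mCherry library 2, where they stood at 17.7 and 9.99 RPM.

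The feedback inhibitors that ERK induces showed the same tumour standing apart. None of the 9 passed, none had groups that did not overlap, and 8 had lower means in R108G tumours (median log2 difference -0.27). Dusp6, a phosphatase that inactivates ERK, was at 72.0, 79.6 and 90.5 RPM in the R108G tumours, against 45.6, 720.3 and 44.4 RPM in the mCherry tumours. Spry4, an inhibitor of receptor signalling, was at 25.3, 16.2 and 18.0 RPM in the R108G tumours, against 5.35, 169 and 7.29 RPM in the mCherry tumours. In both genes the R108G libraries lay close together, above mCherry libraries 1 and 3 and below mCherry library 2, the tumour with Met at 6283 RPM. Without mCherry library 2 the median of the list was 0.70, and within the high range of library numbers, where mCherry library 3 stood alone, it was 0.91. The sign of this list changed in 5 of 18 alternatives. For 8 targets of ERK such as Etv4 and Phlda1 the median was -0.24, it was 0.41 without mCherry library 2, and its sign changed in 4 of 18.

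**Figure D4:**
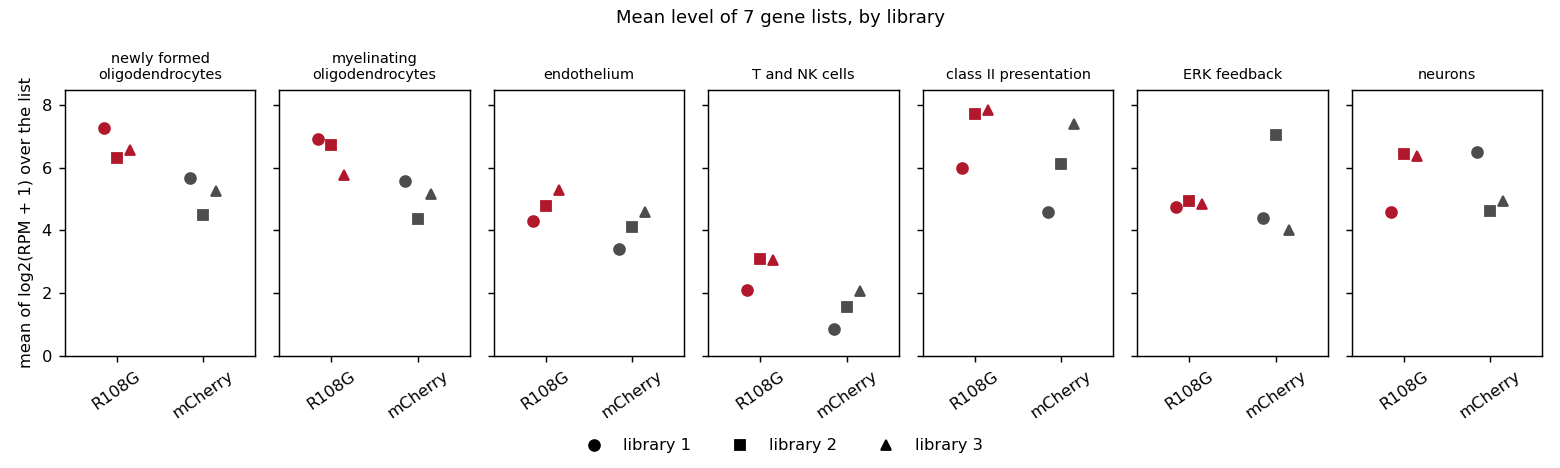
Mean of log2(RPM + 1) over the tested members of 7 gene lists in each library, with R108G in red on the left and mCherry in grey on the right of each panel. The R108G libraries lie above the mCherry libraries for both oligodendrocyte lists and for T and NK cells, and mCherry library 2 stands alone at 7.04 for ERK feedback.

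Genes of maturing oligodendrocytes lay higher in R108G tumours as a group. All 12 listed genes of newly formed oligodendrocytes had higher means, against 51.2% of all genes, and 8 of them had an unadjusted limma p under 0.05, against 4.82%. In 6 of the 12 all R108G libraries were higher, against 6.85%, the median log2 difference was 1.69, and none of the 12 passed. Of 18 genes of myelinating oligodendrocytes, 16 had higher means, 11 had an unadjusted limma p under 0.05, 8 had all R108G libraries higher, and the median was 1.51, again with no gene that passed. Since these were bulk samples, a different number of cells of a type and a different amount of RNA per cell cannot be told apart, here or for any cell type below.

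Gpr17, a receptor of committed oligodendrocyte precursors, was at 1707, 635 and 983 RPM in the R108G tumours, against 250.1, 33.1 and 298 RPM in the mCherry tumours. Itpr2, a calcium channel gene of newly formed oligodendrocytes, was at 232 RPM in R108G library 1, 65.3 RPM in library 2 and 66.3 RPM in library 3, against 31.6, 32.5 and 18.4 RPM in the mCherry tumours. R108G library 1 was the highest in both genes and the groups did not overlap. The log2 differences were 2.90 ± 0.64 (SE, limma adjusted p = 0.135) for Gpr17 and 1.87 ± 0.46 (0.195) for Itpr2. Sirt2, a deacetylase abundant in this lineage, was at 1.65, Tmem163 at 2.48, the axon adhesion gene Nfasc at 1.72 and Enpp6 at 2.15 on the log2 scale, and in each the groups did not overlap.

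Among the myelin genes Mag, myelin-associated glycoprotein, was at 306.1 RPM in R108G library 1, 242 RPM in library 2 and 90.9 RPM in library 3, against 47.5, 7.63 and 42.6 RPM in the mCherry tumours. Myrf, a transcription factor required for myelin gene expression, was at 204, 128 and 75.7 RPM in the R108G tumours, against 33.3, 27.1 and 27.6 RPM in the mCherry tumours. The groups did not overlap, and R108G library 1 was the highest and library 3 the lowest of the R108G tumours. The log2 differences were 2.85 ± 0.86 (SE, limma adjusted p = 0.305) for Mag and 2.07 ± 0.67 (0.360) for Myrf. Opalin was at 2.85, Mog at 2.38, the sulfotransferase gene Gal3st1 at 1.88 and Cnp at 1.35, each without overlap, while Mbp (1.82) and Fa2h (1.67) overlapped. Cortex, as mature tissue, had far more myelin RNA than either tumour group, with a summed level of the 18 genes of 13910 and 14230 RPM, against 8887, 5354 and 3033 RPM in R108G and 2705, 1683 and 2021 RPM in mCherry tumours.

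Early genes of the lineage included the gene with the smallest p. The list of 17 precursor genes shares Gpr17 with the newly formed list and Cspg4 with that of pericytes. It also shares Vcan with that of macrophages and Neu4 with that of sialidases. Of the 17 genes 1 passed, Neu4, and 15 had higher means (51.2% of all genes did). At an unadjusted limma p under 0.05, 6 were higher (4.82% of all genes), and 4 had all R108G libraries higher (6.85%). The median of the 17 genes was 0.50, and 0.78 without mCherry library 3, and whether it differs from that of the later lists was not tested. Cspg4, the proteoglycan NG2 of precursors and pericytes, was at 439, 399.8 and 307.9 RPM in the R108G tumours, against 90.2, 88.8 and 109 RPM in the mCherry tumours. The groups were well apart, with a log2 difference of 1.97 ± 0.55 (SE, limma adjusted p = 0.244). Pdgfra, the growth factor receptor of precursors, was at 564, 611 and 412 RPM in the R108G tumours, against 701, 219 and 620.0 RPM in the mCherry tumours, so its groups overlapped. The lineage factors Olig2, Olig1 and Sox10 overlapped too, with Olig1 at 0.40 and Sox10 at 0.50 on the log2 scale. The median of the newly formed list stayed between 1.25 and 1.97 and that of the myelin list between 1.21 and 1.896 over the 18 alternatives.

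**Figure D5:**
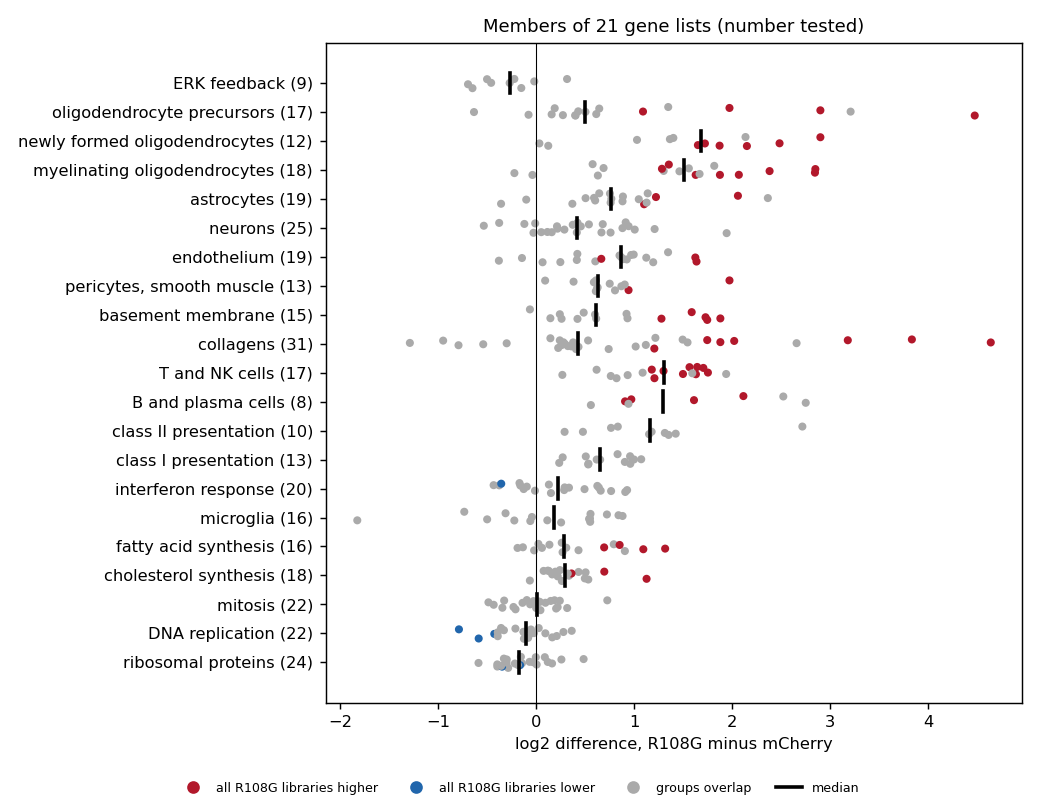
Log2 difference R108G minus mCherry of every tested member of 21 gene lists, with the number tested in parentheses. Each point is a gene, red where all R108G libraries were higher, blue where all were lower and grey where the groups overlap, and black bars are medians, which reach 1.69 for newly formed oligodendrocytes.

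Of 19 astrocyte genes, which share S100b with the S100 list, 17 had higher means (51.2% of all genes did). Their median was 0.77 and none passed. The median was 1.38 without mCherry library 1, 0.35 without mCherry library 2 and 0.41 without R108G library 3. Aldoc, an aldolase of astrocytes, was at 489, 662 and 586 RPM in the R108G tumours, against 328, 186 and 243 RPM in the mCherry tumours. All R108G libraries were higher, with a log2 difference of 1.22 ± 0.34 (SE, limma adjusted p = 0.244). Ntsr2, another astrocyte gene, was at 20.4, 25.4 and 284.5 RPM in the R108G tumours, against 32.3, 2.58 and 8.87 RPM in the mCherry tumours. R108G library 3 was far above the rest, mCherry libraries 2 and 3 were the lowest, and the log2 difference was 2.37. Neuron genes had higher means in 20 of 25 (median 0.42), none had groups that did not overlap, and without mCherry library 2 the median was 0.02.

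Genes of progenitors, mitosis and DNA replication had list medians from -0.19 to 0.01, against 0.01 over all genes, and no member passed. Of 16 stem cell genes 11 had lower means (median -0.19). Dcx, a microtubule protein of migrating neuroblasts, was at 8.29, 29.7 and 5.75 RPM in the R108G tumours, against 72.3, 68.8 and 118 RPM in the mCherry tumours. All R108G libraries were lower, with a log2 difference of -2.77 ± 1.12 (SE, limma adjusted p = 0.505). Of 22 genes of mitosis 12 had higher means (median 0.01), and of 22 genes of DNA replication 6 did (median -0.10). In 3 of the replication genes all R108G libraries were lower (6.64% of all genes), among them Rfc3, a subunit of the clamp loader, at -0.79. Of 16 genes for G1 cyclins, their kinases and inhibitors, 10 had lower means and none passed. The median of these 16 was -0.30, and its sign changed in 0 of 18 alternatives. Mki67, a marker of dividing cells, was at 269, 214.5 and 120.1 RPM in the R108G tumours, against 115, 68.6 and 192 RPM in the mCherry tumours, which overlapped.

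Lymphocyte genes had higher means in R108G tumours. This held for all 17 tested genes of T and NK cells, against 51.2% of all genes. Of these 9 were higher at an unadjusted limma p under 0.05, against 4.82%, 9 had all R108G libraries higher, against 6.85%, and the median log2 difference was 1.30. Cd3e, a chain of the T cell receptor complex, was at 2.60, 6.09 and 9.03 RPM in the R108G tumours, against 0.365, 0.878 and 2.27 RPM in the mCherry tumours. Zap70, a kinase of that complex, was at 3.75, 5.03 and 10.6 RPM in the R108G tumours, against 0.851, 1.37 and 1.92 RPM in the mCherry tumours. The groups did not overlap in either gene, and R108G library 3 and mCherry library 3 were the highest of their groups. The log2 differences, understated at such low levels by the added 1 RPM, were 1.64 ± 0.63 (SE, limma adjusted p = 0.474) for Cd3e and 1.57 ± 0.48 (0.329) for Zap70. All 8 tested B and plasma cell genes had higher means as well (median 1.29, and 0.55 within the high range of library numbers). Cd79a, a chain of the B cell receptor, was at 3.55, 7.09 and 18.05 RPM in the R108G tumours, against 0.851, 0.220 and 2.82 RPM in the mCherry tumours. Jchain, which joins the subunits of secreted antibodies, was the most abundant of them, at 65.4, 192 and 522 RPM in the R108G tumours, against 8.26, 16.7 and 133 RPM in the mCherry tumours. It overlapped through mCherry library 3, and neither list had a gene that passed.

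Antigen presentation genes overlapped between the groups. All 10 class II genes had higher means in R108G tumours (median 1.17), against 51.2% of all genes, and in none did the groups separate. Cd74, the invariant chain of class II molecules, was at 506, 2586 and 3111 RPM in the R108G tumours, against 185, 663 and 1712 RPM in the mCherry tumours. R108G library 1 lay below mCherry libraries 2 and 3. Within the high range of library numbers the class II median was -0.18 and that of 13 class I genes -0.15 (0.65 over all), so both signs turned without mCherry libraries 1 and 2. Without mCherry library 1 alone the medians were 0.55 for class II and 0.11 for class I, and without mCherry library 3 they were 1.84 and 1.08. Microglia genes were split, with 9 of 16 means higher (median 0.18), and of 17 macrophage genes 7 were higher. Spp1, osteopontin, was at 31.2, 28.5 and 14.6 RPM in the R108G tumours, against 34.3, 291 and 146 RPM in the mCherry tumours, with a log2 difference of -2.23 (limma adjusted p = 0.594). The complement gene C4b was at 2410.4, 2638 and 3117 RPM in the R108G tumours, against 465, 354 and 1306 RPM in the mCherry tumours. All R108G libraries were higher in C4b (2.17 ± 0.59, SE, limma adjusted p = 0.244).

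Vessel genes were higher in most means. Of 19 endothelial genes 17 had higher means, against 51.2% of all genes, and 12 were higher at an unadjusted limma p under 0.05, against 4.82%. The median was 0.87, and 0.50 without mCherry library 1, and none passed. Vwf, von Willebrand factor, was at 71.6, 62.9 and 64.0 RPM in the R108G tumours, against 9.48, 26.8 and 34.3 RPM in the mCherry tumours. Mfsd2a, a lipid transporter of the blood-brain barrier, was at 91.2, 51.8 and 127.5 RPM in the R108G tumours, against 39.1, 10.6 and 43.7 RPM in the mCherry tumours. The groups did not overlap in these genes, with log2 differences of 1.62 ± 0.40 (SE, limma adjusted p = 0.192) and 1.64 ± 0.44 (0.235). In 3 of the 19 genes all R108G libraries were higher (6.85% of all genes), and within the high range of library numbers the endothelial median was 0.30. All 13 genes of pericytes and smooth muscle had higher means (median 0.63, and 0.95 without R108G library 2).

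Lipid synthesis genes had higher means in most cases, by small amounts. Of 16 fatty acid genes 13 had higher means (51.2% of all genes did). At an unadjusted limma p under 0.05, 5 of them were higher (4.82% of all genes were). The median of the 16 was 0.29, and 0.49 without mCherry library 2 or 0.45 without R108G library 3. Scd1, a stearoyl-CoA desaturase, was at 164 RPM in R108G library 1, 225 RPM in library 2 and 286 RPM in library 3, against 120.5, 126 and 44.1 RPM in the mCherry tumours, with a log2 difference of 1.32 ± 0.41 (SE, limma adjusted p = 0.329). Acacb, an acetyl-CoA carboxylase of mitochondria that restrains fatty acid oxidation, was at 42.5, 41.9 and 33.2 RPM in the R108G tumours, against 2.55, 1.21 and 3.30 RPM in the mCherry tumours. Its R108G libraries were close together and far above the mCherry libraries. With a log2 difference of 3.63 ± 0.71 it was the gene of smallest p that did not pass (SE, limma adjusted p = 0.0532). Of 18 cholesterol synthesis genes 17 had higher means (median 0.29, and 0.09 without R108G library 2 or 0.45 without R108G library 3). In 3 of the 18 all R108G libraries were higher (6.85% of all genes).

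Outside these lists the genes nearest the threshold were named by p. Spon1, the matrix protein F-spondin, was at 269.6, 1919.7 and 1836 RPM in the R108G tumours, against 71.0, 144 and 87.3 RPM in the mCherry tumours (3.34 ± 0.65, SE, limma adjusted p = 0.0532). R108G libraries 2 and 3 exceeded every tumour of the other groups, where the highest level was 542 RPM. Sulf2, which trims sulfate groups from heparan sulfate, was at 874, 472 and 563 RPM in the R108G tumours, against 246, 265 and 179.8 RPM in the mCherry tumours (1.43). Pllp, plasmolipin of myelin, was at 380.5, 271 and 171 RPM in the R108G tumours, against 82.3, 33.2 and 34.6 RPM in the mCherry tumours (2.49). Paqr4 (1.06), the lipid transporter gene Abca3 (0.81) and the cytochrome gene Cyp4f14 (2.33) likewise had all R108G libraries higher without passing.

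No gene was called lower by limma or edgeR, while DESeq2 called 68 genes higher and 30 lower and limma with library weights 28 higher and 26 lower. The balance of directions thus varied with the fit. A split of library numbers into 2 ranges sets the R108G tumours against mCherry library 3 alone, so the directions of its calls rest on that tumour. The 10 of smallest p in which all R108G libraries were lower, as in 6.64% of genes, were Etaa1, Tspan12, Mzt1, Sh3bgrl, Siah1a, Eif4e, Wbp5, Zc4h2, Mageh1 and Fnbp1l, with log2 differences of -0.94 to -1.72 and limma adjusted p of 0.135 to 0.221. Tspan12, a tetraspanin of vascular Wnt signalling, was at 34.5, 27.1 and 38.2 RPM in the R108G tumours, against 101.2, 271 and 48.9 RPM in the mCherry tumours. Eif4e, which binds the cap of messenger RNA, was at 112 RPM in R108G library 1, 153 RPM in library 2 and 109 RPM in library 3, against 278, 290.2 and 188 RPM in the mCherry tumours. In Tspan12 mCherry library 2, with Met at 6283 RPM, was far above the rest. In Eif4e the mCherry mean (252 RPM) lay near those of EGFR wild-type (271 RPM), R108K (262 RPM), R222C (252 RPM) and T263P (256 RPM) tumours. The means of A289I (171 RPM), A289V (184 RPM) and cortex (160 RPM) lay between these and that of R108G (124.5 RPM). Tspan12 and Met both lie on chromosome 6, at 21771395 to 21852515 and at 17463800 to 17573980. Tspan12 was at 112, 100 and 75.8 RPM in the EGFR wild-type tumours, where Met was at 4610, 3853 and 3.51 RPM. A link between the 2 genes was not tested.

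Of these 10 genes 4 lie on the X chromosome (Sh3bgrl, Wbp5, Zc4h2 and Mageh1). Wbp5 was at 117 RPM in R108G library 1, 105.1 RPM in library 2 and 92.5 RPM in library 3, against 219, 255 and 216 RPM in the mCherry tumours. R108G library 2, which had Xist, was as low as R108G libraries 1 and 3, which had Y-linked RNA. Among all tested genes with a position 3.64% are X-linked, whereas 134 of the 1046 genes with all R108G libraries lower (12.8%) and 12 of the 1080 with all R108G libraries higher (1.11%) are.

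Set against EGFR wild-type tumours in the same fit, R108G tumours had no gene that passed with limma, 0 with edgeR and 77 with DESeq2, and 1347 genes (8.51%) had an unadjusted p under 0.05, 4.4% higher and 4.11% lower. The 6 genes that rose against mCherry were all higher than with the wild-type receptor by mean. Neu4 was at 8.42, 19.4 and 37.3 RPM in the EGFR wild-type tumours, below every R108G library, a log2 difference of 2.42 ± 0.49 (SE, limma adjusted p = 0.292). The R108G minus wild-type difference was 2.38 ± 0.64 for Col9a3 (limma adjusted p = 0.364), 1.03 ± 0.27 for Oraov1 (0.364), 1.198 ± 0.25 for Ppfia1 (0.292), 1.18 ± 0.37 for D630003M21Rik (0.375) and 0.55 ± 0.45 for S100a1 (0.737). Both comparisons share the R108G libraries. The median over newly formed oligodendrocyte genes was 1.202 and over myelin genes 0.89 against the wild-type tumours, beside 0.04 over all genes, and no member passed. Egfr was at 115, 209 and 393 RPM in the EGFR wild-type tumours, so R108G libraries 1 and 3 lay below all of them (-1.24 ± 1.09, limma adjusted p = 0.754).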

How the data were processed

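Polyadenylated RNA of tumours and cortex was sequenced as stranded libraries, per the labels' protocols. The deposited tables, named RPM, give a signal per gene and library. Since all values came to whole reads within 0.05 of a read (100% of values) once a constant per library was removed, and the median ratio was equal across libraries (1.00184), the authors' signal was taken as counts divided by size factors and was divided by 10.2638 to give RPM. The design had assumed true RPM. The submitters' processing notes name FastQC, STAR 2.5.0a, DESeq2 1.20.0 and mm10 without roles. The tables list 0 mitochondrial genes.

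Values of log2(RPM + 1) were fitted with limma 3.58.1 in R 4.3.3 for genes reaching 1 RPM in 3 or more libraries. The model had 9 group means over 30 libraries and 21 residual degrees of freedom, used the trend and robust options, and gave two-sided p-values. Whole reads were also tested with edgeR 4.0.16, which called 6 genes, and DESeq2 1.42.0. The other alternatives were the pseudocount, the filter, TMM, library weights, a fit of only the groups compared, library numbers split into 2 or 3 ranges, and libraries left out. The fit was also run on simulated counts with set changes in the R108G libraries. These held no tumours that stood apart, no sex difference and no library ranges, and no result above rests on them. Positions are from GENCODE M21, or RefSeq where no symbol matched, and promoter windows from RefSeq.

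The members and the 47 lists were chosen with earlier results of these data known. Genes named were those that passed, the 10 of smallest p per direction among the others whose groups did not overlap and whose higher mean reached 5 RPM, up to 4 members of a list with the smallest p plus small families, and Egfr, Met and the genes around Ccnd1.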

Additional observations from a re-analysis of the deposited data

How the results depend on the processing

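The count of genes that passed in R108G against mCherry (6) lay between 4 and 9 with another pseudocount, another filter, no filter, TMM or edgeR. It was 54 with library weights (28 up, 26 down), 98 with DESeq2 (68 up, 30 down), 0 in a limma fit of only the groups compared (1123 genes unadjusted), 10 when library numbers were split into 2 ranges (2 up, 8 down), 11 with 3 ranges (2 up, 9 down), 10 within the high range (2 up, 8 down) and 13 without R108G libraries 1 and 3 (12 up, 1 down). The split into 2 ranges and the fit within the high range are the same by construction, because of these groups only mCherry spans both ranges, and they left 2 of the 6 calls, Neu4 and S100a1. With a library left out the count ranged from 1 to 10. The fits with DESeq2 and library weights held all 6. Against EGFR wild type the count (0) was 71 with library weights, 77 with DESeq2, 5 with 2 ranges, 7 with 3 ranges, 7 without R108G libraries 1 and 3, and 0 to 6 with a library left out. No call changed sign under any alternative, and of 5515 values of single genes 46 lost and 61 gained a call. No paired analysis was possible because the numbers in the titles are shared by no pair of samples. Causes of these changes were not tested. Groups held 3 tumours each, and the lowest depth among the R108G and mCherry libraries was 7466221 reads, in mCherry library 1. With a library left out, list medians near 0 took both signs for mitosis (-0.15 to 0.23), DNA replication (-0.27 to 0.11), microglia (-0.31 to 0.68), macrophages (-0.35 to 0.37) and sialidases with sialyltransferases (-0.07 to 0.23), while neurons ranged from 0.02 to 1.10. Sex-linked RNA and library numbers differed between the groups, and beyond the fits above their part was not tested.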

Other observations

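X-linked genes lay lower in R108G tumours as a class, an observation made after the values were seen. Of 437 X-linked genes averaging 5 RPM or more over the 6 libraries (Xist left out), 348 had lower means in R108G than in mCherry tumours (79.6%), against 51.5% of 12011 autosomal genes. All R108G libraries were lower in 27.7% of the X-linked and 6.97% of the autosomal genes, and the median log2 difference was -0.42 for X-linked and -0.02 for autosomal genes. Relative to the median of the 28 tumours, the median X-linked gene stood at -0.04, -0.14 and -0.11 on the log2 scale in R108G libraries 1, 2 and 3, against 0.34, 0.00 and 0.54 in mCherry libraries 1, 2 and 3. mCherry libraries 1 and 3 thus stood high, with Xist at 809 and 409 RPM, and mCherry library 2 did not, with Xist at 317 RPM. In the other tumour groups the median X-linked gene lay between -0.38 (R108K library 4) and 0.42 (R222C library 1), and against EGFR wild-type tumours the median R108G difference of X-linked genes was -0.23. No cause of this shift was tested.

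Of 7 tested pigment cell genes 5 had higher means in R108G tumours (51.2% of all genes did) and none passed. In 2 of them all R108G libraries were higher (6.85% of all genes). The median, 0.50, is the value of Sox10, which the precursor list holds too. Dct, an enzyme of melanin synthesis, was at 13.4, 9.26 and 6.22 RPM in R108G tumours, against 1.22, 0.329 and 0.275 RPM in mCherry tumours (log2 difference 2.72 ± 0.91, SE, limma adjusted p = 0.363). Pmel, a melanosome protein, also had all R108G libraries higher (1.62). Kit, a receptor of pigment and mast cells, was at -0.94 and Gpnmb, also on the macrophage list, at -1.24, and both overlapped. Tyr and Tyrp1, which define pigment cells, did not pass the filter on low values.

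A pair of genes was near 0 in all R108G tumours and high in mCherry library 3. Veph1 was at 533.7 RPM there and Tex19.1 at 34.99 RPM. They are named because of that 1 library, and no test is drawn on for them.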
